A study of Mus musculus with 38 samples.

Results

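The third day of the primed to naive transition (PNT) was compared with the second day in mouse cells kept in iCD1, a chemically defined reprogramming medium. The comparison held 4 of the 38 libraries of the series: those titled day 2 and day 3 of iCD1, with 2 replicates on each day. The labels call them reprogramming cells and their titles carry the name kiPSC. They are read here, from the study's account of the transition, as kEpiSC on the way to kiPSC; kEpiSC is a line of epiblast stem cells (EpiSC) described there with Klf4 under the CAG promoter and an Oct4-GFP reporter. The cells were moved from primed medium with Activin A and bFGF into iCD1 without a JNK inhibitor. A parallel culture in the same medium was given JNKi, the compound SP600125 that blocks c-Jun N-terminal kinases, with 3 libraries on day 2 and 2 on day 3. Cells before the transition (kEpiSC, n = 2), day 1 of iCD1 (n = 2) and the naive line obtained at the end (kiPSC, n = 2) gave reference levels. Every library was bulk RNA of a culture from 1 transgenic line, so that a lower level can mean fewer cells of a type or less RNA per cell, and these cannot be told apart.

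EpiSC resemble the epiblast after implantation, the stage at which cells enter the primitive streak and become mesoderm. Naive cells resemble the epiblast of the blastocyst. Presomitic mesoderm leaves the streak under WNT and FGF signals, is specified by the T-box factor Tbx6 and by Msgn1, and is cut into somites by a Notch-driven oscillator, the segmentation clock. The AP-1 factors, of which c-Jun is a founding member, are dimeric transcription factors induced by growth signals and stress. With this background the day step was read by gene groups: the mesoderm and clock genes, the pluripotency genes, the signalling pathways, the AP-1 and stress genes, and growth and metabolism.

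Library totals were 6.938 and 6.341 M counts for day 2 and 6.695 and 4.624 M for day 3, and the replicates of each day differed by more than counting noise. Of 14892 genes tested in edgeR's quasi-likelihood fit over 17 libraries, 913 were called higher on day 3 (6.13%) and 908 lower (6.10%) at an adjusted p of 0.05. Of the genes called higher 581, and of those called lower 313, changed by 2-fold or more. The part of expression level in this split was not tested. The median log2 fold change over all genes was 0.01. Without day 2 replicate 1 the calls were 252 higher and 283 lower, without day 2 replicate 2 they were 446 and 498, without day 3 replicate 1 they were 475 and 519, and without day 3 replicate 2 they were 372 and 285; the lone library left on a day was then assumed to vary like the other groups. Of all calls 50.1% were in the higher direction, against 74.4% in limma on log2(TPM + 1), in which the log2 fold changes of all genes lay 0.13 higher at the median. In a fit of all 38 libraries 294 genes were called higher and 238 lower; there the clock list described below had 15 members called lower, the streak list 2, the Nodal list 3, the AP-1 and imprinted lists 2 higher, the BMP list 3 higher, the TGF-beta response list 1 higher, and the immediate early, p53, YAP, actin, epithelial, glycolysis, G2/M and fibroblast lists 0 in either direction. Levels below are CPM, counts scaled to a common library size after TMM, given for replicate 1 and then replicate 2, and fold changes are log2, day 3 over day 2, with the standard error (SE).

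**Figure D1:**
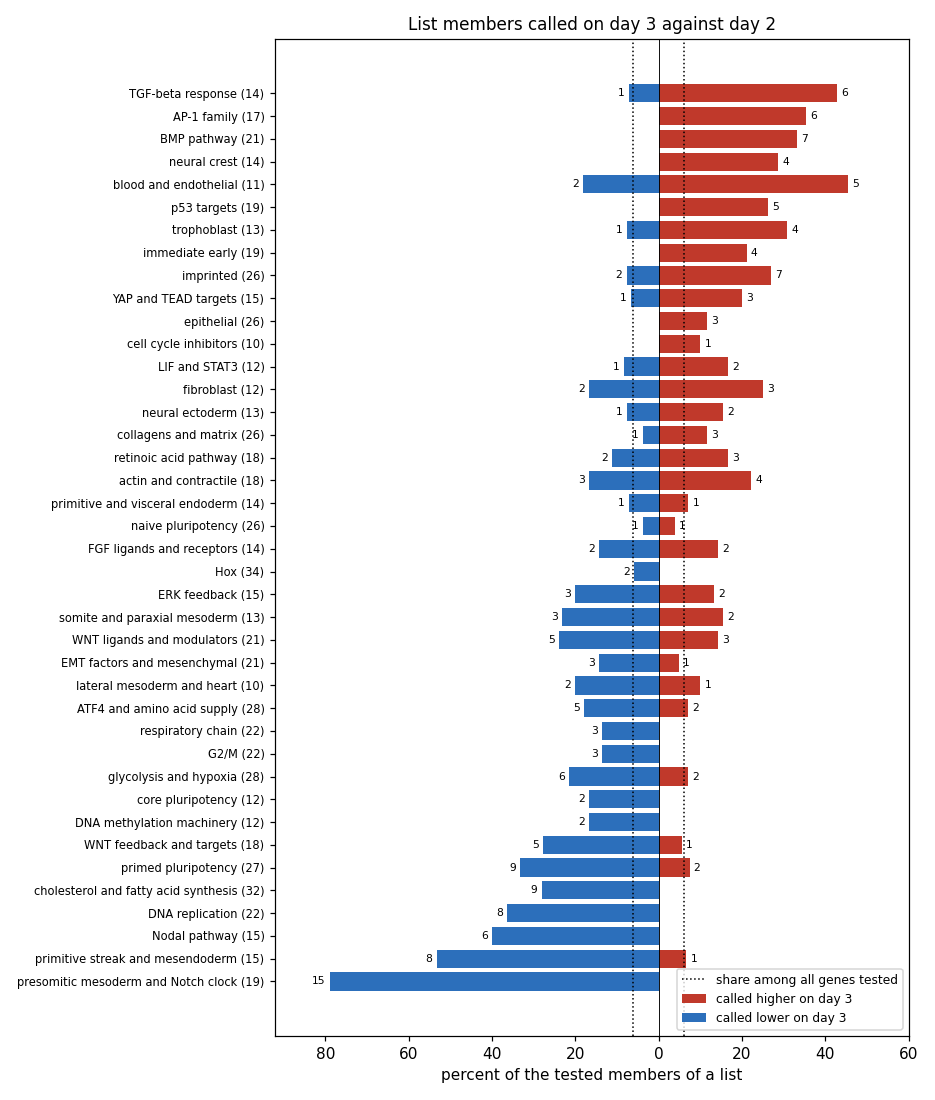
Members of 40 gene lists called higher (red, to the right) or lower (blue, to the left) on day 3 against day 2, as percent of the tested members (number in brackets). The figures at the bars are counts of members, and the dotted lines mark the share among all genes tested (6.13% higher, 6.10% lower). The presomitic mesoderm and Notch clock list stands at the lower end with 15 of 19 members called lower, and the lists are ordered by the percent called higher minus the percent called lower, with the TGF-beta response list (6 of 14 called higher, 1 lower) uppermost.

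Genes of the presomitic mesoderm and the segmentation clock fell between day 2 and day 3. Of the 19 tested genes of the presomitic mesoderm and Notch clock list, 15 fell and 0 rose, with a median log2 fold change of -2.26 over the list. 11, 15, 12 and 12 members were called lower without day 2 replicate 1, day 2 replicate 2, day 3 replicate 1 and day 3 replicate 2, respectively. The list holds several classes of genes: the specifiers of the tissue, the ligands and modulators of Notch, the genes of the forming somite boundary, and the WNT genes that keep the tissue growing.

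Among the specifiers, Tbx6 (ENSMUSG00000030699, mm10 chr7:126781483-126785560) had 135 and 55.1 CPM on day 2 and 5.88 and 2.69 CPM on day 3 (log2 fold change -4.40 ± 0.49 SE, adjusted p = 6.15e-05 in edgeR). Msgn1, the bHLH factor of the posterior presomitic mesoderm, had 28.9 and 15.4 CPM, then 2.87 and 2.48 CPM (-3.03 ± 0.41, adjusted p = 3.12e-04 in edgeR). In both genes day 2 replicate 1 was the higher library, and both day 2 libraries lay above both day 3 libraries.

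Of the Notch genes, the ligand gene Dll1 (ENSMUSG00000014773, mm10 chr17:15367354-15376872) had 576 and 329 CPM on day 2 and 48.1 and 25 CPM on day 3 (-3.61 ± 0.46, adjusted p = 1.94e-04 in edgeR). Dll3, a divergent ligand that is needed for clean segmentation, had 156 and 126 CPM and then 23.3 and 15.3 CPM (-2.85 ± 0.31, adjusted p = 6.29e-05 in edgeR). Nrarp, a feedback target of Notch, had 268 and 153 CPM and then 30.1 and 22.7 CPM (-2.98 ± 0.44, adjusted p = 6.02e-04 in edgeR). The receptor and clock genes had smaller fold changes than these. Notch1 fell by 1.42, the glycosyltransferase gene Lfng by 2.26 and the oscillating repressor gene Hes7 by 1.82 on the log2 scale. Hes7 had 119 and 45.7 CPM on day 2 and 29 and 17 CPM on day 3, and its call was lost without day 2 replicate 1, day 3 replicate 1 or day 3 replicate 2. Lfng lost its call without day 2 replicate 1 or day 3 replicate 2. The genes of the list that were not called were Hes1 (84.4 and 80.4 CPM as day means), Heyl, Fgf17 and Cyp26a1, the last of which encodes a retinoic acid-degrading enzyme.

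Of the genes of the forming boundary, Mesp2 and Ripply2 went to 1 and 0 counts on day 3. Mesp2 (ENSMUSG00000030543, mm10 chr7:79810727-79813439), the bHLH factor that sets the anterior boundary of the next somite, had 23.5 and 11.1 CPM on day 2 and 0.144 and 0 CPM on day 3. Its 227 counts of day 2 stood against 1 count of day 3, a ratio of 207 in scaled counts with a 95% exact interval of 36.7 to 8202 that covers counting error only (adjusted p = 0.0016 in edgeR). Ripply2, which represses Tbx6 activity at the boundary, had 22 counts on day 2 and 0 on day 3, so that it was at least 6.68-fold lower against a floor of 3 counts over the group. The call of Ripply2 was lost without day 2 replicate 1, day 3 replicate 1 or day 3 replicate 2 and in DESeq2. Pcdh8, a protocadherin gene of the forming somite, had 61.8 and 57.3 CPM and then 5.31 and 1.86 CPM (-3.98 ± 0.60, adjusted p = 8.34e-04 in edgeR), and Pcdh19 fell by 1.80 and lost its call without day 2 replicate 1 or day 3 replicate 1. Snai1, the repressor of E-cadherin that cycles in this tissue, fell by 1.85.

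These genes had not been high throughout. Mesp2 stood at 0.199 CPM in kEpiSC and 0.247 CPM on day 1, Pcdh8 at 0.962 and 3.8 CPM, while Tbx6 had already reached 83.7 CPM and Dll1 256 CPM on day 1. In kiPSC the means were 1.78 CPM for Mesp2, 0.435 CPM for Pcdh8, 0.405 CPM for Tbx6 and 0.287 CPM for Dll1. Between day 1 and day 2, a step that shares the day 2 libraries with the step to day 3, 8 members of the list were called higher and 2 lower, where 7.10% of all genes tested were called higher and 9.38% lower.

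**Figure D2:**
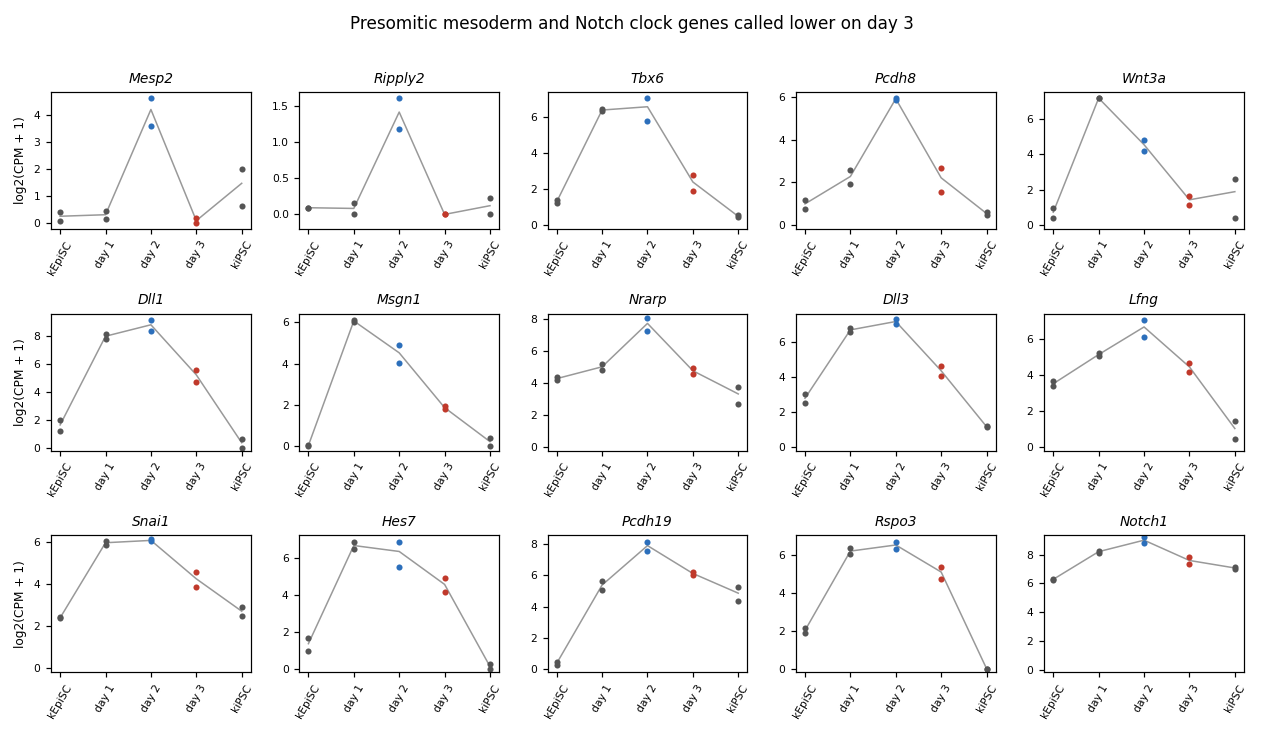
Expression of the 15 presomitic mesoderm and Notch clock genes called lower on day 3, as log2(CPM + 1), in kEpiSC, on days 1, 2 and 3 of iCD1 and in kiPSC. Points are libraries (2 per group, day 2 blue and day 3 red), the line joins the group means, and each panel has its own scale. Both day 3 points lie below both day 2 points in each panel, and Mesp2 and Ripply2 peak on day 2.

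The promoters of the clock genes were read for short motifs, since these genes moved together. Windows of 300 bases, from 250 before to 50 after the start of the gene, came from RefSeq (GRCm38.p6), the first listed where a gene has several, and were matched by symbol for 14 of the 15 genes called lower and for 11147 of the genes tested. The letters GTGGGAA, the core of sites bound by RBPJ, the DNA-binding partner of Notch, were found on either strand in 3 of the 14 windows (21.4%), against 6.23% of the tested genes and 6.39% of all RefSeq promoters. The T-box letters GGTGTGA were in 1 of the 14 (7.14%; 3.42% of tested and 3.96% of all promoters), and the TCF letters CTTTGAT in 1 (7.14%; 2.48% and 3.72%). The AP-1 letters TGANTCA and the CRE letters TGACGTCA were in 0 of the 14, in 4.79% and 3.17% of the tested genes and in 7.93% and 1.88% of all promoters; a second listed window of Dll1 held the AP-1 letters. The motifs do not overlap in the windows shown. The 4 genes with a match are printed 5′ to 3′ on the strand of the gene, as the 250 bases before the start: Hes7 at chr11:69120203-69120452 (plus strand), Lfng at chr5:140607091-140607340 (plus), Msgn1 at chr12:11208949-11209198 (minus) and Ripply2 at chr9:87015287-87015536 (plus). Capitals mark the match to RBPJ in Hes7, Lfng and Msgn1 (the second match in Msgn1), to TCF in Msgn1 (the first) and to the T-box letters in Ripply2, and a match is a description of the letters only.
Hes7: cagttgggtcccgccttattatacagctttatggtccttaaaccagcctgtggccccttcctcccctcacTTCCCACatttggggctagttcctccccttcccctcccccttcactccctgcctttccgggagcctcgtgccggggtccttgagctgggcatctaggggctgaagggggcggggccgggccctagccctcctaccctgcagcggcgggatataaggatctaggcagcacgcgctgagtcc
Lfng: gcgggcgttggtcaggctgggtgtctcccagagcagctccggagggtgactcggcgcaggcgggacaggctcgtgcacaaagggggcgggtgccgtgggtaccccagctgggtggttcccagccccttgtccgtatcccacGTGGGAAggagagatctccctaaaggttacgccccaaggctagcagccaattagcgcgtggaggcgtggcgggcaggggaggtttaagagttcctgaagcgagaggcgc
Msgn1: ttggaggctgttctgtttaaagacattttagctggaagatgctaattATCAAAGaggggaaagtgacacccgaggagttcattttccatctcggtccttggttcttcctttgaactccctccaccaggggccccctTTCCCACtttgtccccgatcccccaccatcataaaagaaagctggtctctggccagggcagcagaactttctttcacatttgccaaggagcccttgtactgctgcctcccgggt
Ripply2: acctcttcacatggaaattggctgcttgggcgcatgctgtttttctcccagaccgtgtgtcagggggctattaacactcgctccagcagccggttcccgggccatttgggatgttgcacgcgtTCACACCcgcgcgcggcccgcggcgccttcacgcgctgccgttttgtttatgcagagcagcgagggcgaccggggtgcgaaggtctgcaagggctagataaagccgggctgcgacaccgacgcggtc
Over all genes called, the RBPJ letters were in 6.12% of the promoters of genes called higher and 6.2% of those called lower, close to the share among tested genes.

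The primitive streak is the source of the mesoderm of the embryo. Of 15 tested members of the streak and mesendoderm list, 8 fell and 1 rose (median -1.49). 4, 5, 4 and 4 were called lower without day 2 replicate 1, day 2 replicate 2, day 3 replicate 1 and day 3 replicate 2, respectively. T, which encodes Brachyury, had 284 and 284 CPM on day 2 and 103 and 127 CPM on day 3 (-1.31 ± 0.17, adjusted p = 1.94e-04 in edgeR). Its day 1 mean was 1574 CPM, so that the day 3 level was the last of 3 falling day means. Evx1, a homeobox gene of the posterior streak, had 46.7 and 52.1 CPM and then 10.8 and 10.3 CPM (-2.22 ± 0.22, adjusted p = 3.13e-05 in edgeR). Mesp1, the partner of Mesp2 on chromosome 7 and a marker of nascent mesoderm, had 17.1 and 4.81 CPM and then 0.574 and 0 CPM (-4.98 ± 1.30, adjusted p = 0.0225 in edgeR), a call lost without day 2 replicate 1, day 3 replicate 1 or day 3 replicate 2.

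The posterior growth factors of the streak changed by less. Cdx1 fell by 1.15, Cdx2 by 1.18 and Nkx1-2 by 1.49, and each of these calls was lost whichever of the 4 libraries was left out and in limma on log2(TPM + 1). Sox17, an endoderm factor, was the member that rose: it had 0.744 and 0.801 CPM on day 2 and 2.73 and 9.72 CPM on day 3 (2.94 ± 0.78, adjusted p = 0.023 in edgeR), and lost its call without day 2 replicate 1, day 2 replicate 2 or day 3 replicate 2. Tbx6 and Fgf8, described with the clock and FGF genes, were the other falls. Eomes, Mixl1, Gsc, Foxa2 and Wnt3 had day means under 2.5 CPM and were not called, and Lhx1 stayed between 53.9 and 56.2 CPM as day means.

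WNT ligand and modulator genes moved in both directions. Wnt3a, a ligand of the posterior embryo, had 27.2 and 17.1 CPM on day 2 and 2.15 and 1.24 CPM on day 3 (-3.64 ± 0.60, adjusted p = 0.00133 in edgeR), after 142 CPM as the day 1 mean. Wnt5a had 91.7 and 93.2 CPM and then 32.6 and 35.8 CPM (-1.44 ± 0.15, adjusted p = 3.92e-05 in edgeR). Rspo3, a clock list member and secreted enhancer of WNT signalling, had 81 and 105 CPM and then 26.3 and 41.4 CPM (-1.47 ± 0.24, adjusted p = 0.00166 in edgeR). The antagonist gene Frzb (mm10 chr2:80411970-80447625) fell further than the ligands: it had 183 and 133 CPM on day 2 and 10.6 and 7.44 CPM on day 3 (-4.10 ± 0.29, adjusted p = 1.53e-06 in edgeR). In the other direction, Wnt6 rose by 2.29 and Wnt7a by 2.16, both ligands of epithelia, and Dkk2 by 3.23. The antagonist gene Sfrp1 fell by 0.95, a call lost without day 2 replicate 1, day 3 replicate 1 or day 3 replicate 2. The 3 rises were lost without day 2 replicate 1, and those of Wnt6 and Wnt7a also without day 3 replicate 2.

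Together 5 of the 21 ligand and modulator genes fell and 3 rose; 0, 3, 3 and 1 were called higher without day 2 replicate 1, day 2 replicate 2, day 3 replicate 1 and day 3 replicate 2. In the list of WNT feedback and target genes 5 of 18 fell (T, Cdx1, Cdx2, Nkd2 and Lef1) and 1 rose, Lgr5, the receptor gene of R-spondins. Lgr5 had 1.49 and 1.44 CPM on day 2 and 18.1 and 11.8 CPM on day 3 (3.34 ± 0.59, adjusted p = 0.00234 in edgeR). Of the falls only that of T held without each of the 4 libraries, and 1 member was called lower in each of these fits.

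Retinoic acid, made from vitamin A, opposes FGF and WNT in the posterior embryo, and its synthetic gene changed strongly. Aldh1a2 (mm10 chr9:71215789-71296243), the main enzyme of retinoic acid synthesis in somites, had 229 and 290 CPM on day 2 and 15.9 and 17.4 CPM on day 3 (-3.97 ± 0.43, adjusted p = 6.13e-05 in edgeR). Its day 1 mean was 92.4 CPM and its kiPSC mean 7.31 CPM. The binding protein genes moved in opposite directions: Crabp1 fell by 1.29 and Crabp2 rose by 0.92. Nr2f2, an orphan receptor gene, rose by 1.38 and Rdh10, which makes the substrate of Aldh1a2, by 1.01. In all 3 of 18 tested members rose and 2 fell; 1, 3, 2 and 3 rose without day 2 replicate 1, day 2 replicate 2, day 3 replicate 1 and day 3 replicate 2, Nr2f2 losing its call without day 2 replicate 1 or day 3 replicate 1 and Rdh10 without day 2 replicate 1.

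FGF genes moved in both directions. Fgf8, the ligand of the posterior gradient, had 68.5 and 85.5 CPM on day 2 and 21.1 and 25.4 CPM on day 3 (-1.73 ± 0.33, adjusted p = 0.00345 in edgeR), and Fgf3 had 14.4 and 8.01 CPM and then 1.87 and 2.07 CPM (-2.51 ± 0.37, adjusted p = 6.67e-04 in edgeR). Fgfr2, whose splice forms serve epithelium and mesenchyme, had 12.4 and 17 CPM and then 55.7 and 55.4 CPM (1.92 ± 0.27, adjusted p = 4.59e-04 in edgeR). Fgf9 rose by 1.75, a call lost without day 2 replicate 1 or day 2 replicate 2. Among 15 ERK feedback genes 3 fell (Spry4 by 1.36, Spry2 by 0.76 and Epha4 by 0.68) and 2 rose (Spred3 by 1.39 and Spry1 by 0.94). Of these 5, Spred3 was called without each of the 4 libraries; 0, 1, 0 and 2 members were called lower and 1 was called higher in each fit without day 2 replicate 1, day 2 replicate 2, day 3 replicate 1 and day 3 replicate 2.

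The Nodal pathway maintains the primed epiblast, and 6 of its 15 tested genes fell while 0 rose (median -0.78). Foxh1, the DNA-binding partner of the Smad proteins, had 31.7 and 25.5 CPM on day 2 and 6.6 and 7.86 CPM on day 3 (-2.0 ± 0.22, adjusted p = 6.13e-05 in edgeR). The inhibitor gene Lefty1 had 53.7 and 132 CPM and then 13.8 and 13.9 CPM (-2.75 ± 0.52, adjusted p = 0.00337 in edgeR), and Lefty2 fell by 2.2, a call lost without day 2 replicate 2, day 3 replicate 1 or day 3 replicate 2. In the Lefty genes day 2 replicate 2 was the higher library, in contrast to Tbx6, Dll1 and Hes7. Cer1, another secreted inhibitor, had 16 counts on day 2 and 1 on day 3 (ratio 14.6, 95% exact interval 2.26 to 611 for counting error), a call also lost without these 3 libraries. Acvr2b, a receptor gene, fell by 0.78, and Fgf8 was counted here too. Nodal itself had 1.79 and 3.84 CPM and then 2.3 and 2.27 CPM and was not called. 5, 4, 4 and 3 members were called lower without day 2 replicate 1, day 2 replicate 2, day 3 replicate 1 and day 3 replicate 2, respectively.

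Somite genes moved in both directions. Uncx, which marks the posterior part of each somite, had 12.1 and 24.5 CPM on day 2 and 111 and 62.9 CPM on day 3 (2.26 ± 0.40, adjusted p = 0.00278 in edgeR). Pax3, a factor of the dermomyotome and neural crest, had 4.32 and 6.73 CPM and then 24.3 and 37.2 CPM (2.47 ± 0.43, adjusted p = 0.00251 in edgeR). The remaining called members, Aldh1a2, Pdgfra and Foxc2, fell; Pdgfra had 75.5 and 66 CPM and then 17.4 and 19.2 CPM, and Foxc2 fell by 1.46 and lost its call without day 2 replicate 1, day 2 replicate 2 or day 3 replicate 2. Among 34 tested Hox genes, which mark position along the body axis, 2 fell and 0 rose. The falls were 5.88% of the list, near the 6.10% called lower among all genes tested, and the list median was 0.11. Hoxb1, from the anterior end of its cluster, had 112 and 118 CPM and then 41.5 and 35.8 CPM (-1.57 ± 0.19, adjusted p = 2.05e-04 in edgeR). With any of the 4 libraries left out, 1 Hox gene was called lower. Of the 32 that were not called, Hoxb9 had the highest level, with 248 and 292 CPM as day means.

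Among the core pluripotency genes the main change was in Pou5f1. Pou5f1 (Oct4; mm10 chr17:35506018-35510772), the central factor of pluripotency, had 112 and 125 CPM on day 2 and 27.7 and 17.8 CPM on day 3 (-2.35 ± 0.27, adjusted p = 1.07e-04 in edgeR). This was the low point of the sampled course, since the means were 1476 CPM in kEpiSC, 512 CPM on day 1 and 1128 CPM in kiPSC. Sox2 had 53.7 and 75.8 CPM and then 40.9 and 49.4 CPM and was not called. Lin28a, an RNA-binding protein gene, fell by 0.61, and lost its call without day 2 replicate 1, day 3 replicate 1 or day 3 replicate 2. These 2 were the called members of 12 core genes, and 1, 2, 1 and 1 were called lower without day 2 replicate 1, day 2 replicate 2, day 3 replicate 1 and day 3 replicate 2.

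Of 26 naive pluripotency genes 1 was called higher and 1 lower. Dppa5a had 2.83 and 3.68 CPM on day 2 and 10.8 and 7.44 CPM on day 3 (1.51 ± 0.46, adjusted p = 0.0446 in edgeR), against 1466 CPM in kiPSC, and its call was lost whichever of the 4 libraries was left out. Gbx2, a target of LIF signalling that is also a gene of posterior mesoderm and neuroectoderm, had 165 and 150 CPM and then 64.7 and 67.2 CPM (-1.26 ± 0.17, adjusted p = 2.60e-04 in edgeR). The other naive genes were not called, and several had day 3 levels far below those of kiPSC.

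Nanog had 7.18 and 4.14 CPM on day 3 against a kiPSC mean of 832 CPM, and its log2 fold change from day 2 was -0.59 ± 0.73. Esrrb had 9.04 and 5.38 CPM against 651 CPM (-0.99 ± 0.57). Tfcp2l1 had 14.8 and 9.51 CPM against 991 CPM (-0.11 ± 0.41). Zfp42 had 2.58 and 1.45 CPM against 322 CPM, and Klf2 had 23.4 and 17.8 CPM against 334 CPM. Klf4, whose reads come from the endogenous gene and can also come from the transgene, had 142 and 149 CPM on day 2 and 136 and 142 CPM on day 3 (-0.06 ± 0.16).

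Among 27 primed genes 9 fell and 2 rose. The falls included zinc finger factors of the primed epiblast and neural plate: Zic5 fell by 1.51 and Zic2 by 1.27, the last a call lost whichever of the 4 libraries was left out. Dnmt3b, a de novo DNA methyltransferase, had 111 and 96.8 CPM and then 57.1 and 46.7 CPM (-1.0 ± 0.18, adjusted p = 0.00231 in edgeR). Further falls were those of Lefty1, Lefty2, Cer1, Fgf8 and Lef1. Krt18 rose by 1.86 and Sox11 by 0.46. Fgf5, the standard primed marker, had no reads in the 4 libraries after 73.3 CPM in kEpiSC, so that no fold is given, and Otx2 and Pou3f1 had day means of at most 2.34 CPM and were not called. 7, 5, 5 and 5 members were called lower and 1, 1, 2 and 1 higher without day 2 replicate 1, day 2 replicate 2, day 3 replicate 1 and day 3 replicate 2, respectively.

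The AP-1 family was called in 1 direction. Of 17 tested members of the family 6 were called higher and 0 lower (median 0.82). Jun (c-Jun; mm10 chr4:95049034-95052222) had 65.4 and 118 CPM on day 2 and 266 and 369 CPM on day 3 (1.79 ± 0.40, adjusted p = 0.00995 in edgeR), above means of 62.7 CPM in kEpiSC, 45.3 CPM on day 1 and 4.94 CPM in kiPSC. Atf3, a stress-induced partner of c-Jun, had 8.34 and 10.4 CPM and then 40.5 and 66.6 CPM (2.51 ± 0.40, adjusted p = 0.00122 in edgeR). Fosb had 64.3 and 143 CPM and then 352 and 494 CPM (2.03 ± 0.56, adjusted p = 0.0279 in edgeR), and Jund had 116 and 190 CPM and then 367 and 400 CPM (1.33 ± 0.33). Day 2 replicate 2 was the higher day 2 library in each of these 4 genes, and both day 2 libraries lay below both day 3 libraries.

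Fosl2 and Bach2 rose by 1.06 and 1.10, calls lost without day 2 replicate 2, day 3 replicate 1 or day 3 replicate 2, and Bach2 also without day 2 replicate 1. Fos had day means of 255 and 519 CPM and Junb of 87.1 and 154 CPM, and neither was called. Atf3 was called without each of the 4 libraries; Jun lost its call without day 2 replicate 1 or day 3 replicate 2 and in the fit of all 38 libraries (adjusted p = 0.0738 in edgeR), and 2, 5, 2 and 1 members were called higher without day 2 replicate 1, day 2 replicate 2, day 3 replicate 1 and day 3 replicate 2. Of the immediate early genes, which answer growth factors and cell handling quickly, 4 of 19 were called higher (Phlda1 by 1.19, Nr4a1 by 1.07, Dusp1 by 1.01 and Zfp36 by 0.86) and 0 lower, and 0, 1, 2 and 0 of them without the same libraries in the same order. Egr1, a common marker of fresh ERK signalling, had day means of 427 and 382 CPM and was not called. The part of handling at harvest in these values was not tested.

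In the p53 target list 5 of 19 genes were called higher and 0 lower (median 0.52), and 0 were called in the fit of all 38 libraries. Ccng1, a cyclin G gene, had 145 and 209 CPM on day 2 and 409 and 459 CPM on day 3 (1.29 ± 0.20, adjusted p = 9.77e-04 in edgeR). Cdkn1a, which encodes the cell cycle inhibitor p21, had 114 and 122 CPM and then 301 and 224 CPM (1.15 ± 0.21, adjusted p = 0.00303 in edgeR). Trp53inp1 rose by 1.15, Tnfrsf10b by 0.91 and Ei24 by 0.31. Cdkn1a was also the 1 called gene of 10 cell cycle inhibitors. 2, 4, 2 and 3 p53 targets were called higher without day 2 replicate 1, day 2 replicate 2, day 3 replicate 1 and day 3 replicate 2, respectively.

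**Figure D3:**
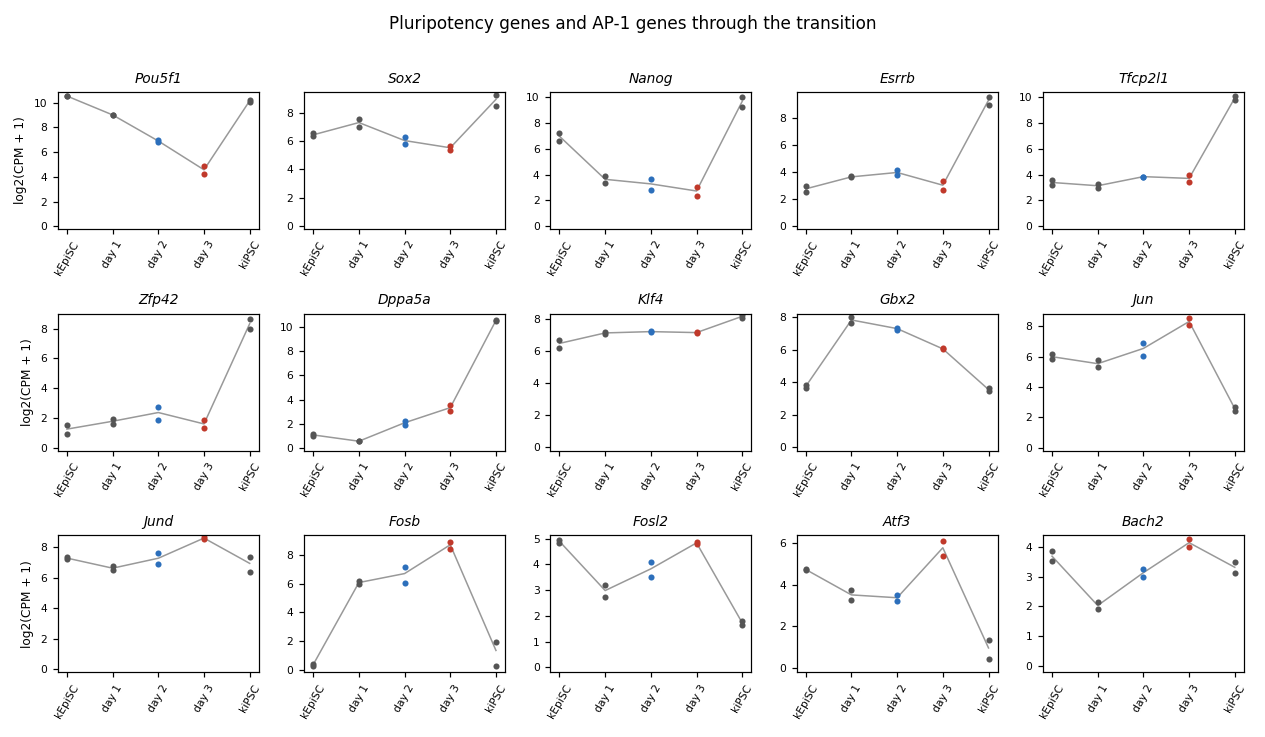
Expression of 9 pluripotency genes (Pou5f1 to Gbx2) and 6 AP-1 genes (Jun to Bach2) as log2(CPM + 1) in kEpiSC, on days 1, 2 and 3 of iCD1 and in kiPSC. Points are libraries (2 per group, day 2 blue and day 3 red), the line joins group means, and each panel has its own scale. Pou5f1 falls through day 3, Nanog, Esrrb, Tfcp2l1, Zfp42 and Dppa5a stay far below kiPSC, and the 6 AP-1 genes rise from day 2 to day 3.

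The genes with the largest rises were chosen by a rule on size and level, as the 15 called genes with the largest log2 fold change, at least 10 CPM on day 3 and groups that do not overlap; because the size of this change chose them, their values are a description. They ran from 3.62 to 6.31 on the log2 scale. Ret (ENSMUSG00000030110, mm10 chr6:118151745-118197718), the receptor tyrosine kinase for GDNF-family ligands, reached the highest level: it had 8.63 and 8.01 CPM on day 2 and 199 and 207 CPM on day 3 (4.60 ± 0.34). Igfbp5, a secreted binding protein of insulin-like growth factors, had 1.34 and 3.68 CPM and then 47.7 and 109 CPM. Psd2, an exchange factor gene, had 4.32 and 7.69 CPM and then 85.1 and 73.2 CPM.

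Several were genes of differentiated or signalling tissues with near-zero levels on day 2. Pcp4, a calmodulin regulator gene known from Purkinje cells, had 3 counts on day 2 and 234 on day 3, a ratio of 85.6 (95% exact interval 28.9 to 418, counting error only). Ikzf3, a zinc finger gene of lymphocytes, had 3 and 215 counts (ratio 78.7, interval 26.6 to 385). Scn4b, a sodium channel subunit gene, had 0.744 and 0.641 CPM and then 24.7 and 26.9 CPM. Hsd11b2, the enzyme that inactivates glucocorticoids in kidney epithelium and placenta, had 0.447 and 0.801 CPM and then 15.5 and 15.1 CPM. On day 3 each of these genes had both libraries between 15.1 and 26.9 CPM.

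The homeobox genes among them were Lbx1, a factor of migrating muscle precursors and dorsal spinal cord, and Pou3f3, a POU factor of brain and kidney. Lbx1 had 0.596 and 1.12 CPM on day 2 and 7.03 and 31.2 CPM on day 3, and its call was lost without day 2 replicate 1, day 2 replicate 2 or day 3 replicate 2. Pou3f3 had 0.447 and 0.481 CPM and then 11.2 and 8.89 CPM. The remaining 6 were Gpx6, Parm1, Cobll1, Asb4, Sema3f and Rprm, of which Sema3f encodes a guidance molecule and Rprm a p53-induced inhibitor of the G2 phase. The day 2 means of Ret, Gpx6, Asb4 and Lbx1 were already above their day 1 means ( 0.487, 0, 0.365 and 0.0625 CPM on day 1).

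The 15 largest falls, chosen by the same rule, held genes already described: Mesp2, Mesp1, Tbx6, Frzb, Pcdh8, Aldh1a2, Wnt3a and Dll1. The others were Kcnq3, a potassium channel gene (10.1 and 10.7 CPM on day 2, 0.431 and 0.207 CPM on day 3), Pglyrp3, Slc38a8, Tgtp1, S1pr3, Pcdhac2 and Nrcam. S1pr3, a receptor gene for sphingosine 1-phosphate, had 32.3 and 21.8 CPM and then 3.16 and 2.48 CPM. Pglyrp3, a peptidoglycan recognition protein gene, had 20.4 and 16.8 CPM and then 1.29 and 0.62 CPM, after a day 1 mean of 0.24 CPM.

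**Figure D4:**
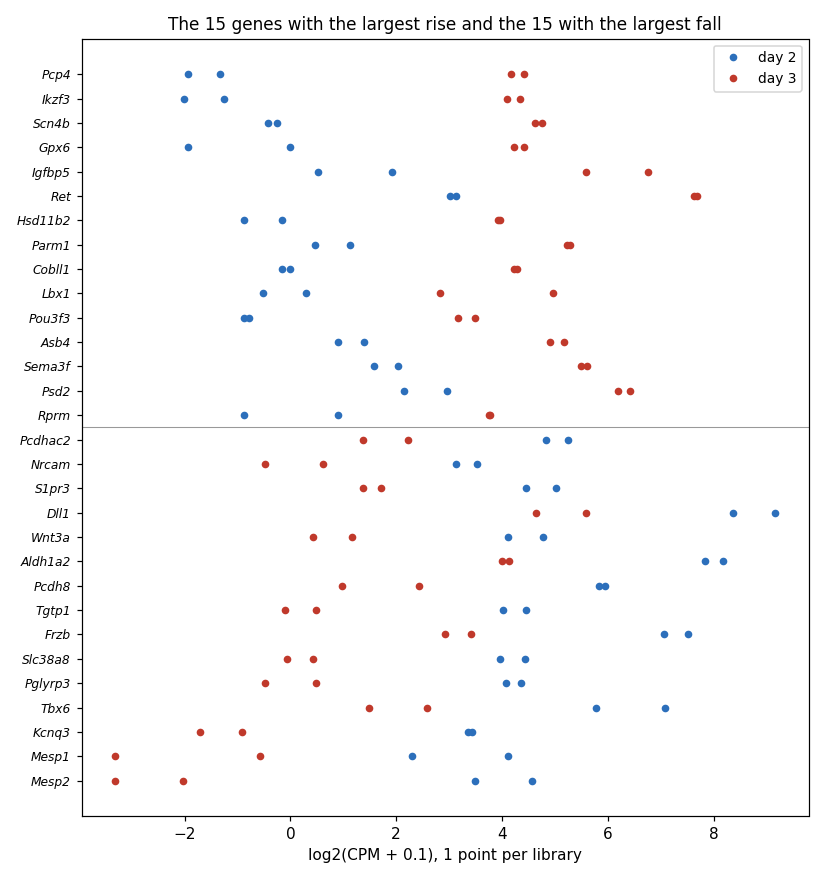
Levels of the 15 genes with the largest rise (above the line) and the 15 with the largest fall on day 3, among called genes with at least 10 CPM on the higher day, as log2(CPM + 0.1) with 1 point per library (day 2 blue, day 3 red). Day 2 and day 3 libraries do not overlap in any of them, which the choice of genes required.

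BMPs are ligands of the TGF-beta family that pattern mesoderm and surface ectoderm, and 7 of the 21 tested genes of the pathway were called higher (median 0.37). The ligand gene Bmp7 had 22.5 and 21.3 CPM on day 2 and 56.6 and 59.8 CPM on day 3 (1.41 ± 0.26, adjusted p = 0.00305 in edgeR). Bmp6 had 0.893 and 0.801 CPM and then 11.5 and 6.82 CPM (3.42 ± 0.65, adjusted p = 0.0034 in edgeR), and Bmp2 had 0.893 and 0.481 CPM and then 5.31 and 7.44 CPM (3.16 ± 0.45, adjusted p = 4.65e-04 in edgeR). The list also held 3 secreted antagonists that rose: Nog by 2.81, Chrd by 1.38, and Grem1, which had 3 counts on day 2 and 35 on day 3 (ratio 12.8, interval 4.04 to 65.1).

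The target gene Gata3, a zinc finger factor, had 3.28 and 3.36 CPM and then 26.4 and 22.7 CPM (2.88 ± 0.48, adjusted p = 0.00161 in edgeR). Other response genes of the BMP list, namely the Id genes, Msx1, Msx2, Smad6, Smad7 and Bambi, were not called. 4, 6, 7 and 4 BMP genes were called higher without day 2 replicate 1, day 2 replicate 2, day 3 replicate 1 and day 3 replicate 2, respectively. In the TGF-beta response list 6 of 14 rose and 1, Ski, fell by 0.46 (median 0.71). Beside response genes the list holds ligand, receptor and binding protein genes, such as Tgfb2, Tgfbr2 and Ltbp2. Its members Skil and Pmepa1 were not called. Tgfb2 had 2.68 and 4.17 CPM and then 9.62 and 18.4 CPM (2.02 ± 0.37, adjusted p = 0.0026 in edgeR). Tgfbi, Thbs1 and Tgfbr2 rose by 1.93, 1.75 and 1.30, and Ltbp2 had 1 count on day 2 and 27 on day 3 (ratio 29.6, interval 4.89 to 1214). Of these only Tgfb2 kept its call without each of the 4 libraries, and 2, 3, 4 and 2 members were called higher and 0 lower without day 2 replicate 1, day 2 replicate 2, day 3 replicate 1 and day 3 replicate 2.

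Genes of the actin cytoskeleton and YAP targets were split. Tagln, an actin-binding protein gene of smooth muscle, had 2.83 and 4 CPM on day 2 and 15.9 and 26.9 CPM on day 3 (2.63 ± 0.68, adjusted p = 0.0204 in edgeR). Cnn2 rose by 1.31 and Tpm2 by 1.06, and Lmod1 had 3 and 38 counts (ratio 13.9, interval 4.41 to 70.4). Acta2 fell by 1.30, Vcl by 0.76 and Zyx by 0.60. Of the 18 genes, 0, 2, 3 and 3 were called higher and 1, 3, 3 and 1 lower without day 2 replicate 1, day 2 replicate 2, day 3 replicate 1 and day 3 replicate 2. Among 15 YAP and TEAD targets Ccn1 rose by 1.37, Axl by 1.41 and Arhgef17 by 0.56, and Fjx1 fell by 1.10. In the same fits 0, 0, 2 and 0 of them were called higher and 0 lower.

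Matrix and adhesion genes showed few calls. Col18a1, a basement membrane collagen gene, had 68.8 and 100 CPM on day 2 and 402 and 445 CPM on day 3 (2.33 ± 0.23, adjusted p = 3.15e-05 in edgeR). Lama1, the laminin chain of the early embryo, had 127 and 99.3 CPM and then 38.8 and 34.5 CPM (-1.62 ± 0.30, adjusted p = 0.00289 in edgeR). Fn1, fibronectin, had 2211 and 2252 CPM and then 1233 and 1251 CPM (-0.85 ± 0.12, adjusted p = 4.27e-04 in edgeR). Col1a1 rose by 2.82 and Sparc by 1.15, so that 3 of 26 collagen and matrix genes rose and 1 fell; 1, 2, 2 and 2 were called higher without day 2 replicate 1, day 2 replicate 2, day 3 replicate 1 and day 3 replicate 2.

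In the list of EMT factors and mesenchymal genes Snai1, Zeb2 (by 1.16) and Fn1 fell and the integrin gene Itgav rose by 0.83, and these 4 calls held without each library. Epithelial genes were called higher in 3 of 26 cases, Krt18 (27.4 and 21.6 CPM, then 97 and 81.3 CPM), Marveld2 and Crb3. The log2 fold change was above 0 in 21 of the 26, and in 7610 of the 14892 genes tested. Between day 1 and day 2, a step that shares the day 2 libraries, 14 of the 26 had been called lower and 0 higher. For all genes tested these shares were 9.38% and 7.10%. With JNKi 1 epithelial gene was called higher and 2 lower from day 2 to day 3 (median 0.04). Cdh1, which encodes E-cadherin, had day means of 179 and 124 CPM and was not called. 1, 1, 1 and 2 of the epithelial genes were called higher and 0, 0, 1 and 0 lower without day 2 replicate 1, day 2 replicate 2, day 3 replicate 1 and day 3 replicate 2, respectively.

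Growth genes that were called fell by small amounts. Of 22 DNA replication genes 8 fell and 0 rose (median -0.34), with the replicative helicase genes most frequent: Mcm7 had 550 and 538 CPM on day 2 and 373 and 379 CPM on day 3 (-0.53 ± 0.08, adjusted p = 9.65e-04 in edgeR), Mcm5 fell by 0.60, Mcm2 by 0.45, Mcm3 by 0.40 and Mcm6 by 0.34. The others were Fen1, Rrm2 and Cdt1. Of 22 G2/M genes 3 fell (Cdc20 by 0.59, Cenpa by 0.41 and Ube2c by 0.33; median -0.25). 2, 3, 4 and 2 replication genes and 0, 2, 1 and 1 G2/M genes were called lower without day 2 replicate 1, day 2 replicate 2, day 3 replicate 1 and day 3 replicate 2, respectively. With RLE size factors 8 replication genes and 3 G2/M genes were called lower, the same counts as in the main fit. In limma on log2(TPM + 1), where all genes lay 0.13 higher at the median, 4 replication genes and 0 G2/M genes were called lower. The list medians there were -0.19 and -0.12. The cause of this difference was not tested.

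Genes of lipid synthesis were called in 1 direction. Of 32 genes of cholesterol and fatty acid synthesis 9 fell and 0 rose (median -0.34). The log2 fold change was above 0 in 0 of the 32, and in 7610 of the 14892 genes tested. Fasn, fatty acid synthase, had 1952 and 1711 CPM on day 2 and 1048 and 781 CPM on day 3 (-1.0 ± 0.18, adjusted p = 0.00251 in edgeR). Mvk, mevalonate kinase, had 59 and 61.5 CPM and then 35.5 and 27.9 CPM (-0.92 ± 0.17, adjusted p = 0.00251 in edgeR). Nsdhl, a sterol dehydrogenase gene, fell by 1.07, and Hsd17b7 by 0.88; Fdps, Acaca and Fads2 fell by 0.49 to 0.62. 4, 6, 5 and 4 were called lower without day 2 replicate 1, day 2 replicate 2, day 3 replicate 1 and day 3 replicate 2, respectively, and 5 in limma on log2(TPM + 1).

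Glycolysis and hypoxia genes fell in 6 of 28 cases and rose in 2. Hk2, a hexokinase gene, had 158 and 156 CPM and then 75.5 and 76.7 CPM (-1.04 ± 0.15, adjusted p = 6.50e-04 in edgeR), and Hk1, another hexokinase gene, had 18 and 28.4 CPM and then 40.3 and 39.1 CPM (0.78 ± 0.22, adjusted p = 0.0324 in edgeR). Slc2a1 fell by 0.67, Pkm by 0.64, Pgam1 by 0.61, Gapdh by 0.44 and Eno1 by 0.41, and Egln3 rose by 0.77. Without the libraries in the order day 2 replicate 1, day 2 replicate 2, day 3 replicate 1 and day 3 replicate 2, 3, 4, 4 and 4 were called lower and 1, 2, 0 and 0 higher. Of 22 respiratory chain genes 3 fell (Cox7a2, Atp5b and Atp5a1, by 0.31 to 0.51), and 1, 2, 1 and 2 in these fits.

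Among 28 ATF4 and amino acid supply genes 5 fell, led by Cth at -1.23, Mthfd2 at -1.04 and the amino acid transporter gene Slc7a5 at -1.03, with Wars and Shmt2, and 2 rose. The rises were Slc7a11, the cystine transporter gene, which had 1.64 and 2.24 CPM and then 10.6 and 10.8 CPM (2.46 ± 0.49, adjusted p = 0.00492 in edgeR), and Cebpb by 1.69; both were lost without day 2 replicate 1. 1, 2, 4 and 0 were called lower without day 2 replicate 1, day 2 replicate 2, day 3 replicate 1 and day 3 replicate 2, respectively. The medians of the glycolysis, respiratory chain and ATF4 lists were -0.21, -0.24 and -0.21, and -0.05, -0.09 and -0.08 in limma on log2(TPM + 1).

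Imprinted genes, many of which regulate growth of the embryo, rose in part. Of 26 members, whose parental copies the counts do not separate, 7 rose and 2 fell (median 0.47). Mest had 178 and 144 CPM on day 2 and 872 and 672 CPM on day 3 (2.26 ± 0.24, adjusted p = 4.04e-05 in edgeR). Igf2, the growth factor gene, had 2230 and 1963 CPM and then 3983 and 3995 CPM (0.93 ± 0.21, adjusted p = 0.0113 in edgeR), and its neighbour H19 had 221 and 421 CPM and then 802 and 1080 CPM (1.55 ± 0.46, adjusted p = 0.0407 in edgeR). Both had been low on day 1, at 132 and 22.8 CPM, and were low in kiPSC, at 11.4 and 15.9 CPM.

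Peg10 rose by 1.17, Plagl1 by 1.82, Grb10 by 0.46 and Igf2r by 0.36, while Phlda2, a repressor of placental growth, fell by 1.21 (627 and 539 CPM, then 281 and 223 CPM) and Snrpn by 0.46. Mest and Phlda2 kept their calls without each library, and Igf2, H19, Grb10 and Snrpn lost theirs whichever library was left out. 1, 3, 4 and 1 imprinted genes were called higher and 1 lower in each without day 2 replicate 1, day 2 replicate 2, day 3 replicate 1 and day 3 replicate 2, respectively. Of 12 genes of the DNA methylation machinery Dnmt3b and Mbd3 (by 0.41) fell, Mbd3 losing its call without day 2 replicate 1, day 2 replicate 2 or day 3 replicate 2, and of 12 germline genes silenced by DNA methylation and 7 genes of the two-cell-like state 0 were called.

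Markers of other cell types rose in part and at low levels. In the blood and endothelial list 5 of 11 tested genes rose and 2 fell: Runx1 had 2.68 and 2.4 CPM and then 9.9 and 9.1 CPM (1.90 ± 0.38, adjusted p = 0.00476 in edgeR), Eng had 0 and 0.801 CPM and then 5.31 and 5.38 CPM, Tek rose by 2.83 and Cd34 by 1.78, and Fli1 had 1 and 41 counts (ratio 45, interval 7.64 to 1821). The defining endothelial gene Cdh5 went the other way, from 7 and 7.37 CPM to 0.718 and 0.414 CPM (-3.57 ± 0.61, adjusted p = 0.00231 in edgeR), as did Lmo2, which fell by 2.29. The members moved in both directions, and their summed level was 63.4 to 94.2 CPM on day 2 and 48.8 to 54.2 CPM on day 3. The defining genes Etv2, Kdr and Pecam1 had day means of at most 4.64 CPM and were not called, and the part of blood or endothelial cells in the results above was not tested. 1, 3, 2 and 4 were called higher and 1, 2, 1 and 1 lower without day 2 replicate 1, day 2 replicate 2, day 3 replicate 1 and day 3 replicate 2, respectively.

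Of 13 trophoblast genes 4 rose, Plet1 (1.19 and 1.12 CPM, then 13.6 and 14.3 CPM), Krt7 by 2.92, Gata3 and Peg10, and Cdx2 fell with a call lost whichever library was left out; 2, 3, 4 and 3 were called higher without day 2 replicate 1, day 2 replicate 2, day 3 replicate 1 and day 3 replicate 2. Of 14 neural crest genes 4 rose: Pax3, Sox9 (13.8 and 14.1 CPM, then 36.7 and 42 CPM), Ets1 (3.42 and 7.05 CPM, then 40.2 and 31 CPM) and Zic1, which had 2 and 86 counts (ratio 47.2, interval 12.7 to 396). All 4 calls held without each library, Sox10 and Foxd3, which define the crest, had day means of at most 2.96 CPM, and the summed level was 204 to 296 CPM on day 2 and 335 to 496 CPM on day 3. For the trophoblast list the sum was 738 to 793 CPM and then 1382 to 1550 CPM, most of it from Peg10, and the part of these cell types in other results was not tested. Of 13 neural ectoderm genes Pax2 and Pou3f3 rose and Hes5, a Notch target, fell by 3.25, a call lost without day 2 replicate 1, day 3 replicate 1 or day 3 replicate 2; Pax2, a factor of kidney, eye and hindbrain, had 56 and 35.2 CPM and then 126 and 148 CPM, and lost its call without day 2 replicate 2 or day 3 replicate 2.

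Of 10 lateral mesoderm and heart genes Tbx2 rose from 1.34 and 2.88 CPM to 33.3 and 17.4 CPM (3.59 ± 0.53, adjusted p = 6.67e-04 in edgeR), and Foxf1 and Myl7 fell by 2.2 and 1.67. Of 12 fibroblast genes Col1a1 and Tagln rose and Thy1 and Acta2 fell, and Fap, with 0 counts on day 2 and 32 on day 3, was at least 11.7-fold higher against a floor of 3 counts over the group. 0, 1, 3 and 1 fibroblast genes were called higher and 0, 2, 2 and 0 lower, and 1, 0, 0 and 0 of the lateral mesoderm genes lower without day 2 replicate 1, day 2 replicate 2, day 3 replicate 1 and day 3 replicate 2, respectively. The summed level of the fibroblast list was 318 to 345 CPM on day 2 and 348 to 366 CPM on day 3. Of 14 primitive and visceral endoderm genes Sox17 rose, a call kept only without day 3 replicate 1, and Lama1 fell, and Gata4 had no reads. Of 12 genes of LIF and STAT3 signalling Icam1 rose by 1.66 and Socs3 by 0.91, and Gbx2 fell; Socs3 lost its call without any 1 of the 4 libraries.

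The same day step was measured with JNKi in libraries that share none with those of iCD1. There 691 genes were called higher (4.64%) and 617 lower (4.14%). Of the 1821 genes called in iCD1, 1801 (98.9%) had the same sign with JNKi, where 76.4% of all genes tested did, and 943 were called there in the same direction, 51.8% of the iCD1 calls and 72.1% of the JNKi calls. 0 genes were called in opposite directions. Across the 14892 genes, which are not independent replicates, the 2 log2 fold changes had Pearson's r of 0.619 and Spearman's rho of 0.673. Among the genes called in iCD1 the step was smaller with JNKi in 1534 and larger in 287, and among the genes called with JNKi it was smaller in iCD1 in 647 and larger in 661. The calls of each medium chose the genes in these counts, which are a description.

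The clock genes fell with JNKi as well: 14 of 19 were called lower and the median was -2.11. Tbx6 had 142, 70.4 and 63.2 CPM on day 2 with JNKi and 5.31 and 6.49 CPM on day 3, and Dll1 had 596, 311 and 206 CPM and then 45.1 and 60.6 CPM. Ret had 7.55, 8.6 and 4 CPM and then 164 and 138 CPM, a log2 fold change of 4.49 ± 0.29 beside 4.60 ± 0.34 in iCD1. Jun had 63.5, 118 and 108 CPM and then 448 and 195 CPM (1.74 ± 0.35 beside 1.79 ± 0.40). The rise of Jun was called with and without the inhibitor, and both day 3 libraries lay above the day 2 libraries in each case.

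No gene passed the test of the difference between the steps (0 called in edgeR; 307 genes, 2.06% of those tested, had an unadjusted p under 0.05; 3 were called in DESeq2, namely Tom1, Gm6741 and a gene without a symbol, and 0 in limma on log2(TPM + 1)). A p that misses the threshold does not show equal steps. Some lists outside metabolism had the wider gaps between their medians, such as the Nodal pathway (-0.78 in iCD1 and -0.32 with JNKi). Within metabolism the widest gaps were those of cholesterol and fatty acid synthesis (-0.34 in iCD1 and 0.01 with JNKi) and glycolysis and hypoxia (-0.21 and 0.06). In the first, 9 members fell in iCD1 and 2 with JNKi; Nsdhl had 136, 138 and 102 CPM on day 2 with JNKi and 72.4 and 161 CPM on day 3, so that its JNKi libraries of day 3 lay on both sides of day 2. For Nsdhl the difference of the steps was -0.95 on the log2 scale with an adjusted p of 1 in edgeR, and 0.00489 with no filter beyond 1 count. Bmp2 had the difference 2.15 and Hk2 -0.61, neither called.

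**Figure D5:**
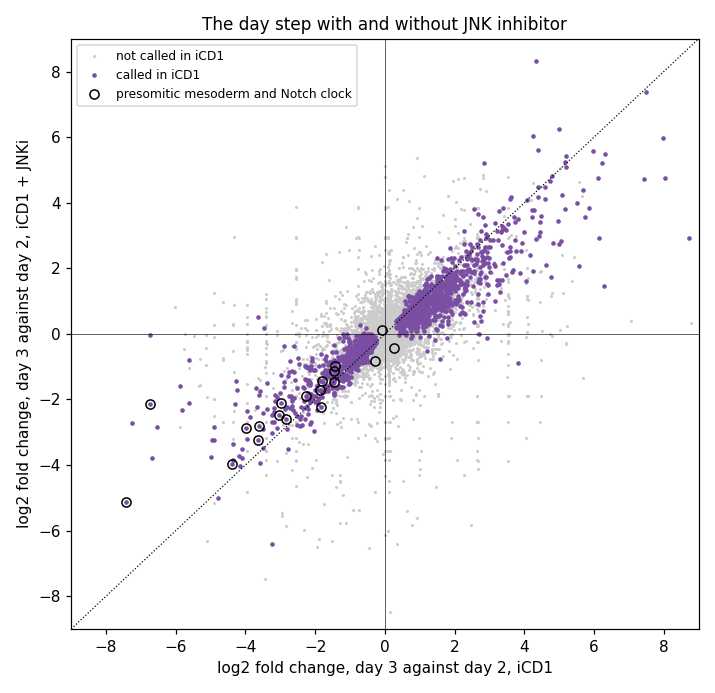
Log2 fold change of day 3 against day 2 in iCD1 (horizontal) and in iCD1 with JNKi (vertical) for the genes tested, with 1 gene beyond the plotted range. Grey points are genes not called in iCD1, purple points are those called, open circles are the presomitic mesoderm and Notch clock genes, and the dotted line marks equal steps. Of the called genes 98.9% have the same sign on both axes, and 1534 of 1821 have the smaller step with JNKi.

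Set against the ends of the transition, some of the called genes moved toward kiPSC on day 3 and others did not. Of the 913 genes called higher, 391 had a day 3 mean closer to kiPSC than the day 2 mean on the log2(CPM + 1) scale, and 504 had a day 3 mean above both kEpiSC and kiPSC. Of the 908 genes called lower, 556 moved closer to kiPSC, and 407 had a day 3 mean below both kEpiSC and kiPSC. The day 3 change itself chose these genes and the share among all genes tested was not computed, so these counts are a description. Genes above both ends included Ret, Jun, Igf2 and Mest, and Pou5f1 was below both. For the clock genes Tbx6, Dll1 and Pcdh8 the day 2 means were above both ends and the day 3 means were closer to kiPSC.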

How the data were processed

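Per the labels, TRIzol RNA was used for TruSeq libraries, read on a NextSeq 500. The submitters' processing notes name bcl2fastq, Bowtie2, RSEM and the build mm10, with no version given in those sources. The deposited expected counts are RSEM estimates, not normalized. The deposited TPM values, used in 1 alternative, are scaled by the authors for effective length and library sum. Each of the 38 tables held 29267 genes, and totals ran from 2.165 to 15.945 M.

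Groups came from the labels. Expected counts were rounded to whole numbers and fitted in edgeR 4.0.16 (R 4.3.3) over 17 libraries (kEpiSC, days 1 to 3 with and without JNKi, kiPSC; 9 residual degrees of freedom) with TMM scaling, a filterByExpr filter (minimum count 10), the quasi-likelihood F test and Benjamini-Hochberg adjustment over 14892 genes. Each SE was computed by dividing the size of the log2 fold change by the root of its F statistic. The difference of the day steps was the interaction contrast in the same fit. The study describes RNA-seq replicates as biological in a figure legend on other samples of the series. The titles of the libraries compared here give a replicate number only. The p-values rest on the spread seen among the 17 libraries of the fit. Members and 42 gene lists were chosen with earlier results of these data known; 832 of 835 entries matched a symbol in GENCODE M21. Lists are described by counts and medians beside all genes tested.

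The text names 12 fixed genes (T, Fgf5, Sox2, Pou5f1, Dppa5a, Zfp42, Klf2, Tfcp2l1, Esrrb, Nanog, Klf4 and Jun), up to 4 called members per list and direction, missed members where a count is discussed, and 15 called genes per direction with the largest change, at least 10 CPM and no overlap between days. A rule for 5 genes by interaction named none. Further called members were named after their values were seen, and some list members are counted but not reported here by name. Bounds use 3 counts over a group and intervals are 95% exact (Clopper-Pearson), for counting error only. Reads of a gene and an overlapping or near-identical gene may be split by RSEM. On simulated data (13149 genes) the edgeR step called 24.0%, 51.5% and 92.0% of genes changed 1.5, 2 and 4-fold on day 3, and 0.046% of unchanged genes. There every library was given the day 2 means, and few genes were changed, none of them at the lowest levels. The rates in the real data can therefore differ. Alternatives were DESeq2 1.42.0, RLE size factors, limma 3.58.1 on log2(TPM + 1), a stricter filter or none beyond 1 count, fewer or all 38 libraries, each library left out and a replicate block. Promoters came from RefSeq. Tables and figures used python 3.11.15, pandas 2.3.3, scipy 1.17.1 and matplotlib 3.10.9.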

Additional observations from a re-analysis of the deposited data

How the results depend on the processing

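Without 1 library at a time the genes called higher ranged from 252 to 475 and those called lower from 283 to 519, and each of these fits left 1 library on a day. In a fit of all 38 libraries 294 genes were called higher and 238 lower. In limma on log2(TPM + 1) 426 genes were called lower, and 3 of the 1821 calls had the opposite sign there. The cause was not tested for either. Other alternatives kept both counts within 1.5 times: RLE size factors (917 and 896), DESeq2 (952 and 1050), no filter beyond 1 count (1244 and 1095), the stricter filter (903 and 908), only the groups compared (998 and 881) and the fit without the JNKi groups (826 and 765). For the difference of the day steps 27 genes were called with no filter beyond 1 count and 3 in DESeq2, and 0 in the other alternatives, leaving out 1 library included. Among them were Fosb and Nsdhl with no filter, and Tom1 and Gm6741 with no filter and in DESeq2.

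Of 214 named genes, 206 were called, 89 of them without each of the 4 libraries and 117 lost in at least 1 of these fits, and 0 changed sign with a call in either fit. The fit of all libraries lost 120 calls of named genes, limma on log2(TPM + 1) 40, DESeq2 8 and RLE size factors 1. Over all genes the replicate numbers paired the libraries weakly at most. Same-numbered libraries of day 2 and day 3 had a correlation of deviations of 0.13, and other pairs of groups ran from -0.056 to 0.189. Single genes, among them Tbx6, Dll1 and Jun, had the same replicate order on both days. With the replicate block 1023 genes were called higher and 997 lower, 0 differed in the step with JNKi, and each named gene kept its call. Depth limits the low genes: with 4.624 M counts in the shallower day 3 library, a change of genes at 0 to 3 counts in a group is known only as a bound or a wide interval.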

Other observations

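Beside Ret, several further genes of the nephric duct and its surroundings rose on day 3; they were chosen after their values were seen (12 of 24 tested were called higher and 1 lower), and Osr1, Wt1, Sall1 and Eya1 of the same tissue were not called. Pax8, a factor of the early kidney lineage, had 1.04 and 1.12 CPM on day 2 and 7.89 and 15.1 CPM on day 3 (log2 fold change 3.38 ± 0.52, adjusted p = 0.0014 in edgeR). Gfra1, the co-receptor gene of Ret, had 2.38 and 0.801 CPM and then 13.2 and 26.5 CPM (3.60 ± 0.69, adjusted p = 0.00436 in edgeR), and Gdnf, which encodes their ligand, had 2.68 and 2.08 CPM and then 7.18 and 10.8 CPM (1.89 ± 0.46, adjusted p = 0.0162 in edgeR). Wfdc2, a secreted protease inhibitor gene of duct epithelia, had 11.5 and 12.3 CPM and then 93.2 and 81.3 CPM (2.87 ± 0.20, adjusted p = 1.53e-06 in edgeR), and Npnt, a basement membrane ligand gene, rose by 2.58. Emx2 rose by 1.80. Gdnf and Emx2 lost their calls without day 2 replicate 1, day 2 replicate 2 or day 3 replicate 2, and the calls of Pax8, Gfra1, Wfdc2 and Npnt held without each library.

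Keratin and surface ectoderm genes, also chosen after their values were seen, were called higher in 4 of 16 cases and lower in 1. Trp63, Krt14, Krt8, Krt19, Tfap2a, Perp and Epcam were not called. Krt5 had 0.744 and 3.2 CPM on day 2 and 15.5 and 14.5 CPM on day 3 (2.93 ± 0.64, adjusted p = 0.0101 in edgeR), a call lost without day 2 replicate 1. Dlx3, a homeobox gene of surface ectoderm, had 8.49 and 6.57 CPM and then 27.7 and 25.4 CPM (1.82 ± 0.33, adjusted p = 0.00267 in edgeR). Grhl3, a factor of the epidermal barrier, had 45.6 and 40.8 CPM and then 25.7 and 17.8 CPM (-0.98 ± 0.24, adjusted p = 0.0158 in edgeR), a call lost without day 2 replicate 1 or day 3 replicate 2.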
